A study of Homo sapiens with 6 samples.

Results

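The genes described here are 53 genes of mitosis and the kinetochore, taken by symbol from the 28265 genes of the deposited tables. All 53 had a row, and all 53 passed the low-count filter that left 14315 genes for testing. They comprise mitotic cyclins and CDK1 with its regulators, mitotic kinases, the spindle checkpoint, the chromosomal passenger complex, centromere and kinetochore proteins, spindle and cytokinesis proteins, condensin and other chromosome proteins, anaphase proteolysis and 2 transcription factors.

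Mitosis begins when CDK1 bound to cyclin B is activated by CDC25 phosphatases. Spindle microtubules are then held by kinetochores, protein assemblies built on centromeric chromatin, and unattached kinetochores keep the spindle checkpoint on, which blocks the anaphase-promoting complex. Once all chromosomes are attached, that complex marks cyclin B and securin for destruction. Many of these mRNAs are made mainly in G2 and mitosis from promoters with CCAAT boxes and a cell cycle homology region (CHR). B-MYB and FOXM1 are among the regulators of these genes. In a mixed culture the level of such mRNAs is known to follow the share of dividing cells.

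Total RNA was sequenced from LN229, an established human glioblastoma line grown in DMEM with serum, in 3 libraries labelled TRIM25 knockdown and 3 labelled WT. The series design names a short hairpin RNA against TRIM25, an E3 ubiquitin ligase. Titles of the WT libraries carry the letters NC without explanation, so whether these cells held a control hairpin is not stated, and the labels are silent on whether replicates were separate cultures. p-values therefore measure the spread between these libraries, which may be technical.

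TRIM25 itself went against the label. It had 80.3, 80.0 and 88.5 CPM (counts scaled to library size, with TMM factors) in the libraries labelled knockdown, against 35.3, 35.8 and 35.6 CPM in the WT libraries, a log2 fold change of 1.22 ± 0.07 (SE; edgeR adjusted p = 3.23e-09). Every direction given is labelled knockdown minus WT, so "rose" means higher in the libraries with more TRIM25 mRNA.

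Total counts lay between 11349865 and 16404725 in the libraries labelled knockdown and between 13763400 and 15868470 in the WT libraries. The member with the fewest reads in any library had 170 and the one with the most had 10126. Labelled knockdown replicate 1 stood apart on the second principal component (19.9, where the others lay between -12.5 and 5.59). Of the 8 markers for a glioblastoma line, VIM averaged 4200 TPM (the authors' length-scaled abundances) in the libraries labelled knockdown and 4460 TPM in WT. In the same order S100B averaged 1050 and 1270, SOX2 125 and 191 and OLIG2 5.40 and 8.43 TPM. NES (377 and 303 TPM) and CD44 (269 and 256 TPM) went the other way. GFAP (0.114 and 0.177 TPM) and CHI3L1 (0 and 0.139 TPM) were near 0. The leukocyte marker AIF1 was at 0 in every library, PTPRC reached at most 0.219 TPM, and the 4 endothelial markers summed to between 0.836 and 1.03 TPM in the libraries labelled knockdown and between 1.02 and 1.27 TPM in WT. The 5 leukocyte markers summed to between 100.3 and 118.4 TPM in the libraries labelled knockdown and between 72.7 and 77.2 TPM in WT, nearly all of it CD68, a lysosomal protein. Sums were 182.8 to 200 against 167.5 to 180.9 TPM for the 4 epithelial markers (KRT8 and KRT18, with EPCAM near 0) and 40.4 to 46.1 against 43.5 to 45.3 TPM for the 4 neuronal ones (SYT1 and SNAP25) in the libraries labelled knockdown against WT. The part of these differences in the results was not tested.

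Members moved in both directions, and most did not pass the test. With edgeR's quasi-likelihood test and Benjamini-Hochberg adjustment over all tested genes, 8 members were higher in the libraries labelled knockdown, 7 were lower and 38 did not pass an adjusted p of 0.05. The 8 that rose are 15.1% of the members, where 12.2% of all tested genes rose. The 7 that fell are 13.2% of the members, where 11.0% of all tested genes fell. The median log2 fold change of the members was -0.028, against -0.0038 for all tested genes. The sizes were small: the median size among the 15 called members was 0.31 on the log2 scale, against 0.35 among the 3330 called genes, which are 23.3% of those tested. CPM ranges were separate between the groups in 22 members (41.5%) and in 37.3% of all tested genes. Nothing in these counts sets the members apart from the other genes. In these bulk libraries a change in the share of mitotic cells and a change in mRNA per mitotic cell cannot be told apart.

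**Figure D1:**
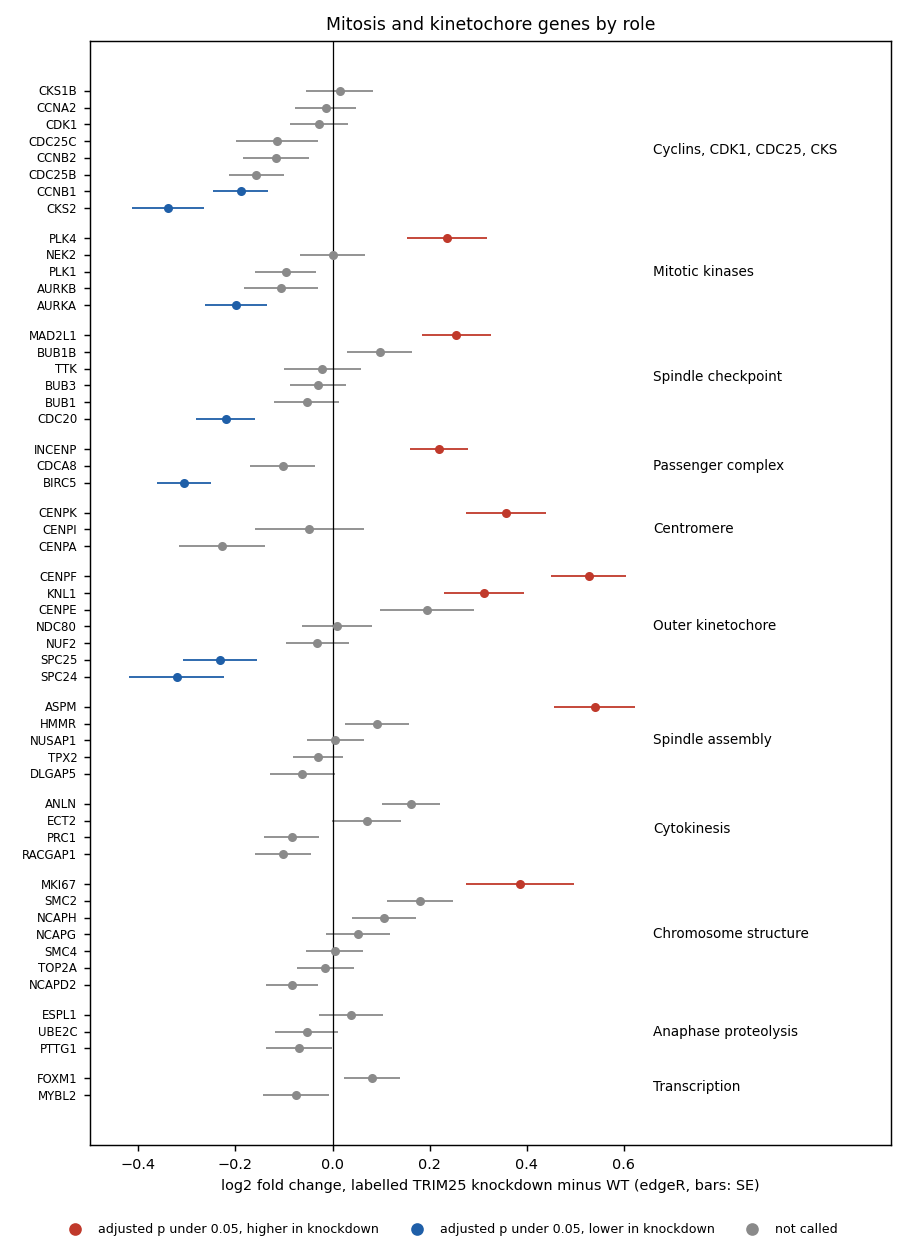
Log2 fold change (labelled TRIM25 knockdown minus WT, edgeR) of the 53 members on the horizontal axis, grouped by role, with bars for the standard error. The 8 members in red passed as higher and the 7 in blue as lower, and 38 in grey did not pass; ASPM (0.54) and CENPF (0.53) lie farthest to the right and CKS2 (-0.34) farthest to the left.

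Of CDK1, its cyclins and its regulators, 8 genes in all, 2 fell, 0 rose and 6 did not pass. CDK1, the kinase that drives entry into mitosis, had 100.5, 102.6 and 101.0 CPM in the libraries labelled knockdown, against 103.5, 101.9 and 104.7 CPM in WT. The log2 fold change was -0.028, with 95% limits of -0.15 and 0.10, and the groups overlapped. CCNB1, the main cyclin B, had 146.3, 143.3 and 147.5 CPM in the libraries labelled knockdown and 162, 165 and 171 CPM in WT, so every labelled knockdown library lay below every WT library. It fell by 0.19 ± 0.06 on the log2 scale (SE; adjusted p = 0.0232). CKS2, a small adaptor subunit of CDK1, had 47.0, 40.9 and 43.8 CPM in the libraries labelled knockdown, against 52.5, 55.8 and 58.5 CPM in WT. It fell by 0.34 ± 0.07 (SE; adjusted p = 0.00324), 1.27-fold, with no overlap of the groups. For CKS1B, the close relative of CKS2 that also serves in degrading the CDK inhibitor p27, the log2 fold change was 0.01 (95% interval -0.13 to 0.16). Cyclin A2 (CCNA2, -0.01), CCNB2 (-0.12), CDC25C (-0.11) and CDC25B (-0.16, adjusted p = 0.0543) did not pass. On the per-length TPM scale CKS2 was the most abundant of these 8 in WT, at 204.1 ± 11.2 TPM in the libraries labelled knockdown and 249.5 ± 8.40 TPM in WT (SD, n = 3 each).

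Among the mitotic kinases AURKA fell and PLK4 rose. AURKA, which matures centrosomes and builds the spindle, had 85.0, 79.7 and 83.7 CPM in the libraries labelled knockdown and 91.2, 98.1 and 96.1 CPM in WT (log2 fold change -0.20 ± 0.06, SE; adjusted p = 0.0305). PLK4, the kinase that starts centriole duplication, had 39.65, 40.92 and 42.45 CPM in the libraries labelled knockdown, against 39.19, 32.93 and 32.33 CPM in WT (0.24 ± 0.08, SE; adjusted p = 0.0472). WT replicate 1 lay just below the lowest labelled knockdown library for PLK4, so the separation of the groups was narrow. PLK1, with many roles from entry to cytokinesis, AURKB, the kinase of the passenger complex, and the centrosome kinase NEK2 did not pass (log2 fold changes -0.10, -0.11 and 0.00).

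In the spindle checkpoint MAD2L1 was higher and its target CDC20 lower. MAD2L1 encodes MAD2, which binds and restrains CDC20, the activator of the anaphase-promoting complex. MAD2L1 had 56.9, 59.5 and 65.7 CPM in the libraries labelled knockdown and 51.4, 52.7 and 48.8 CPM in WT (log2 fold change 0.26 ± 0.07, SE; adjusted p = 0.0167). CDC20 had 115.4, 112.9 and 106.5 CPM in the libraries labelled knockdown, against 124, 132 and 134 CPM in WT (-0.22 ± 0.06, SE; adjusted p = 0.0155). The groups overlapped for neither gene. The ratio of CDC20 to MAD2L1 in TPM was 6.43, 6.02 and 5.14 in the libraries labelled knockdown, against 7.68, 7.91 and 8.69 in WT. The checkpoint kinases TTK and BUB1, the pseudokinase BUB1B (BUBR1) and BUB3 had log2 fold changes between -0.054 and 0.10 and did not pass.

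Subunits of the chromosomal passenger complex, which corrects faulty attachments, differed from each other. BIRC5 (survivin), which brings the complex to centromeres, had 179.5, 174.9 and 175.9 CPM in the libraries labelled knockdown and 210, 227 and 219 CPM in WT. It fell by 0.31 ± 0.06 (SE; adjusted p = 0.000899). INCENP, the scaffold that binds and activates AURKB, had 126, 123 and 120 CPM in the libraries labelled knockdown, against 107, 107 and 102 CPM in WT. It rose by 0.22 ± 0.06 (SE; adjusted p = 0.0135), and in neither gene did the groups overlap. For borealin (CDCA8) it was -0.10 on the log2 scale (95% interval -0.24 to 0.038), which did not pass. The ratio of INCENP to BIRC5 in TPM was 0.452, 0.451 and 0.437 in the libraries labelled knockdown and 0.328, 0.303 and 0.300 in WT.

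At the centromere CENPK rose. CENPK, a subunit of the inner kinetochore network on centromeric chromatin, had 29.15, 33.58 and 31.78 CPM in the libraries labelled knockdown and 23.52, 24.15 and 26.07 CPM in WT (log2 fold change 0.36 ± 0.08, SE; adjusted p = 0.00491). This was a 1.28-fold difference in a gene of 2041 bp, shorter than the median member (3274 bp). CENPA, the histone H3 variant that marks centromeres, had a log2 fold change of -0.23 and did not pass (adjusted p = 0.0714), and CENPI had one of -0.048.

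In the outer kinetochore, CENPF and KNL1 rose while SPC24 and SPC25 fell. CENPF, a very large coiled-coil protein of the kinetochore corona, had 481, 547 and 621 CPM in the libraries labelled knockdown, against 416, 364 and 365 CPM in WT. It rose 1.44-fold (0.53 ± 0.08, SE; adjusted p = 0.000115). KNL1, the scaffold on which the BUB proteins assemble, had 65.7, 76.4 and 84.0 CPM in the libraries labelled knockdown and 64.7, 57.6 and 60.1 CPM in WT (0.31 ± 0.08, SE; adjusted p = 0.0114). For KNL1 labelled knockdown replicate 1 lay close to WT replicate 1. The 4 subunits of the NDC80 complex, which grips microtubules, did not move alike. Its inner dimer fell: SPC24 had 24.49, 19.44 and 20.86 CPM in the libraries labelled knockdown, against 24.15, 29.38 and 27.52 CPM in WT (-0.32 ± 0.10, SE; adjusted p = 0.0257), and the groups overlapped. SPC25 had 32.8, 32.8 and 29.3 CPM in the libraries labelled knockdown and 35.8, 38.1 and 37.3 CPM in WT (-0.23 ± 0.08, SE; adjusted p = 0.0365), with no overlap. NDC80 and NUF2, the outer dimer, had log2 fold changes of 0.0094 (95% interval -0.14 to 0.16) and -0.031 (-0.17 to 0.11). The summed TPM of SPC24 and SPC25 over that of NDC80 and NUF2 was 0.694, 0.676 and 0.627 in the libraries labelled knockdown and 0.758, 0.808 and 0.788 in WT. The motor CENPE varied more in the libraries labelled knockdown (63.7, 69.8 and 90.5 CPM) than in WT (66.9, 63.8 and 66.1 CPM) and did not pass (log2 fold change 0.19, adjusted p = 0.157); without labelled knockdown replicate 1 it was 0.31 and passed.

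**Figure D2:**
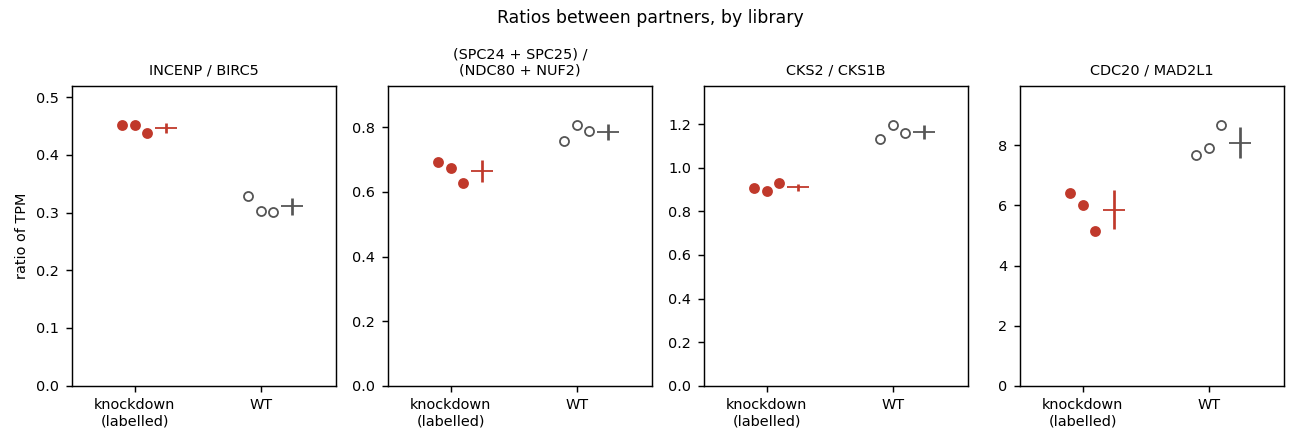
Ratio of TPM between partner genes in each library (points), with the mean and SD of the 3 libraries at the right of each group; the libraries labelled knockdown are on the left of each panel and WT on the right. In each of the 4 ratios the groups do not overlap: CKS2 over CKS1B was 0.910 ± 0.0173 in the libraries labelled knockdown and 1.16 ± 0.0317 in WT (SD, n = 3 each).

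These 4 ratios were chosen after the values were seen and are given as descriptions. A ratio of this kind shows unequal change of the partners and does not show which of them moved. Partners also differ in length, as CDC20 (1648 bp) and MAD2L1 (5227 bp) do, and change went with length in these libraries (described below). The part of length in the ratios was not tested.

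ASPM, which focuses spindle poles, was the only spindle assembly gene of 5 that passed. It had 183, 210 and 241 CPM in the libraries labelled knockdown and 158.9, 139.5 and 137.9 CPM in WT, and rose 1.45-fold (0.54 ± 0.08, SE; adjusted p = 0.000203). TPX2, the activator of AURKA, had 319, 323 and 322 CPM in the libraries labelled knockdown, against 332.7, 318.7 and 332.5 CPM in WT (95% interval of the log2 fold change -0.14 to 0.079). The microtubule bundler NUSAP1 and the spindle proteins HMMR and DLGAP5 did not pass (0.0057, 0.092 and -0.062). None of the 4 genes of the central spindle and cytokinesis passed; the closest was the ring scaffold anillin (ANLN, 0.16 ± 0.06, SE; adjusted p = 0.0593), and PRC1, ECT2 and RACGAP1 lay between -0.10 and 0.07.

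Of the 7 chromosome structure genes only MKI67 passed. MKI67 encodes Ki-67, the coat of mitotic chromosomes widely used as a marker of proliferation. It had 397, 443 and 498 CPM in the libraries labelled knockdown and 427, 317 and 280 CPM in WT (0.39 ± 0.11, SE; adjusted p = 0.0182). WT replicate 1 lay above labelled knockdown replicate 1, so the groups overlapped. TOP2A, the topoisomerase that untangles sister chromatids, had 386, 410 and 439 CPM in the libraries labelled knockdown and 421, 429 and 398 CPM in WT, a log2 fold change of -0.015 (95% interval -0.14 to 0.11). The condensin subunits SMC2, SMC4, NCAPD2, NCAPG and NCAPH had log2 fold changes between -0.083 and 0.18, with SMC2 the closest to the threshold (adjusted p = 0.0618).

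Neither the 3 anaphase genes nor the 2 transcription factors passed. Securin (PTTG1) was the most abundant member per length, at 358.2 ± 21.7 TPM in the libraries labelled knockdown and 363.1 ± 8.80 TPM in WT, followed by the ubiquitin-conjugating enzyme UBE2C at 333.4 ± 16.5 and 334.3 ± 7.42 TPM (SD, n = 3 each). Their log2 fold changes were -0.069 and -0.053, and that of separase (ESPL1), the protease that opens cohesin, was 0.038. FOXM1 had 159, 152 and 149 CPM in the libraries labelled knockdown, against 145, 142 and 148 CPM in WT, with no overlap of the groups but a difference that did not pass (log2 fold change 0.081, 95% interval -0.041 to 0.20). B-MYB (MYBL2) had one of -0.075 (95% interval -0.22 to 0.067).

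**Figure D3:**
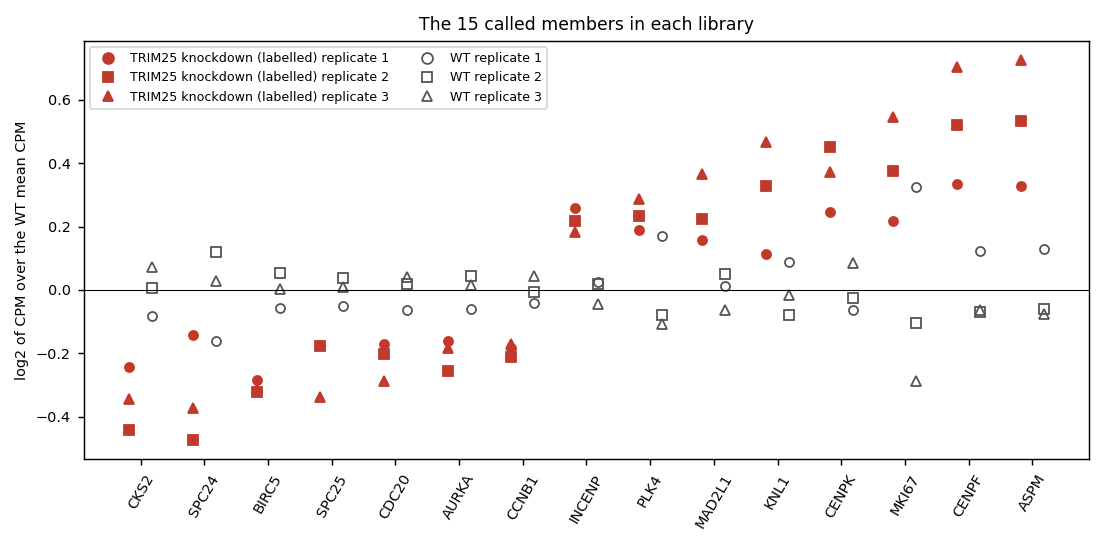
Log2 of the CPM in each library over the mean CPM of the 3 WT libraries, for the 15 members that passed, ordered by fold change; filled symbols on the left of each gene are the libraries labelled knockdown and open symbols on the right are WT. Groups overlap in SPC24 and MKI67, and in ASPM, CENPF and KNL1 labelled knockdown replicate 1 is the lowest filled point and WT replicate 1 the highest open one.

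Of the 15 called members, 5 (CKS2, BIRC5, CENPK, CENPF and ASPM) stayed called in each of the 6 fits that left out a library, and the other 10 lost the call in 3 or 4 of them. CCNB1, AURKA, INCENP and MKI67 lost it without labelled knockdown replicate 2 or WT replicate 2 or 3 (highest adjusted p 0.124, 0.161, 0.0818 and 0.101). PLK4, CDC20, SPC24 and SPC25 lost it without labelled knockdown replicate 2 or 3 or WT replicate 2 or 3 (highest 0.212, 0.0849, 0.142 and 0.161). MAD2L1 lost it without labelled knockdown replicate 2 or 3 or WT replicate 3 (highest 0.0915), and KNL1 without labelled knockdown replicate 2 or 3 or WT replicate 2 (highest 0.0784). Calls were also gained: without labelled knockdown replicate 1, CENPE (0.31, adjusted p = 0.00283), SMC2 (0.24, adjusted p = 0.00226) and ANLN (0.23, adjusted p = 0.00131) passed as higher and CDC25B (-0.18, adjusted p = 0.0130) as lower. Without labelled knockdown replicates 1, 2 and 3 in turn, 11, 3 and 5 members were higher and 8, 2 and 4 lower. Of all genes tested in those fits, 33.8%, 12.8% and 17.0% were called, against 23.3% with all libraries. Without WT replicates 1, 2 and 3, 8, 4 and 4 members were higher and 7, 2 and 2 lower. Those fits called 21.5%, 12.5% and 13.1% of all genes tested, so calls were lost and gained among all genes too.

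The change of a member went with the length of its gene. Length here is the number of bases that the authors' FPKM used for a gene, recovered from the deposited counts and FPKM. Spearman's rho between log2 fold change and length was 0.65 over the 53 members and 0.30 over all 14315 tested genes. The points share the same 6 libraries, so no p is given. The value over all genes depended on the low-count filter: 0.15 with no filter and 0.36 with a stricter one. That over the members stayed at 0.65 and 0.64. Members were also more abundant, with a median of 76.4 TPM in WT against 20.6 TPM for all tested genes. Whether members were more closely tied to length than other genes cannot be read from these values. The 8 members that rose had a median length of 7285 bp (2041 to 12714 bp), and the 7 that fell one of 2167 bp (616 to 2652 bp). CKS2, the shortest member (616 bp), was the one with the largest fall. Of the 5 members over 8000 bp (CENPE, KNL1, CENPF, ASPM and MKI67), 4 rose, and their log2 fold changes lay between 0.19 and 0.54. Of all 1605 tested genes over 8000 bp 32.0% rose and 5.98% fell, with a median of 0.14. CENPK (2041 bp) was the shortest member that rose, and the long BUB3 (7861 bp) had a log2 fold change of -0.029.

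When all tested genes were cut into 5 classes of equal size by length, the 9 members of the shortest class (up to 1941 bp) had a median log2 fold change of -0.12, with 0 higher and 3 lower; the 2863 tested genes of that class had a median of -0.11, with 3.32% higher and 16.1% lower. In the next class (1942 to 2967 bp) 1 of 13 members was higher and 4 were lower, with a median of -0.097 against -0.050 for all genes there, of which 5.73% were higher and 13.0% lower. The 14 members of the middle class had a median of -0.025, with 2 higher and 0 lower, where 9.29% of all genes there were higher and 10.9% lower. The 10 members of the class above it had a median of 0.061, with 1 higher and 0 lower, where 15.3% of all genes were higher and 8.34% lower. In the longest class (from 6306 bp) 4 of 7 members were higher and 0 lower, with a median of 0.31, against 27.6% higher, 6.71% lower and a median of 0.11 for all genes there. In 4 of the 5 classes the members' median was within 0.05 of that of all genes of like length, and in the longest class it was higher by more than that; these are descriptions with no test.

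**Figure D4:**
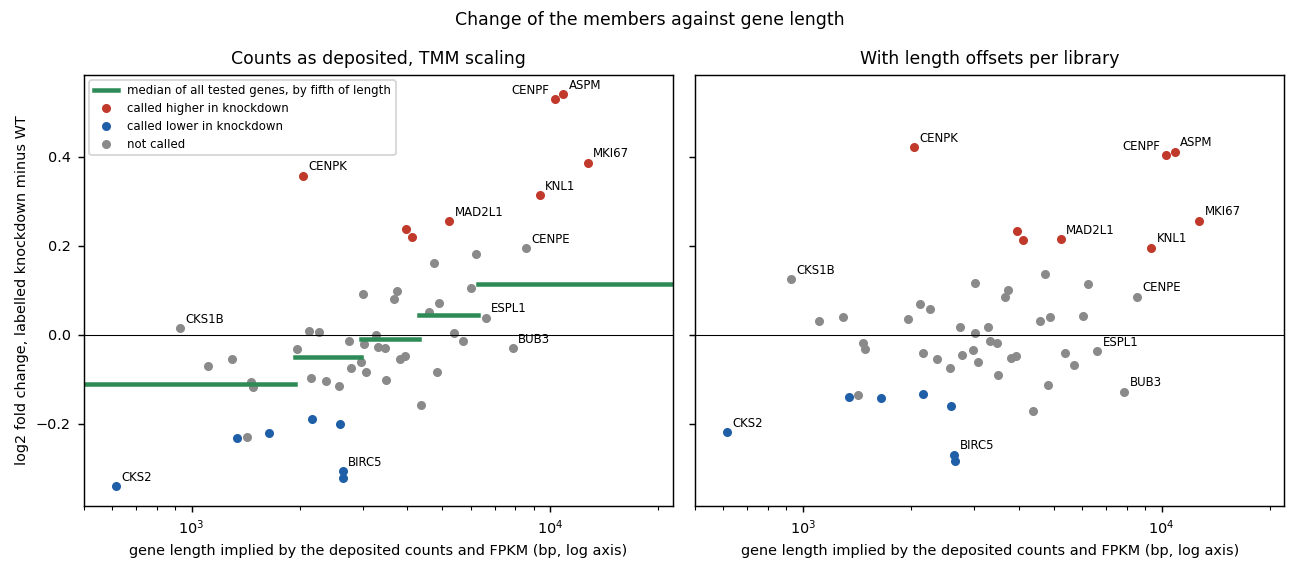
Log2 fold change (labelled knockdown minus WT) of the 53 members against gene length in bp on a log axis: on the left from the deposited counts with TMM scaling, on the right from a fit with length offsets per library. Green lines on the left are medians of all tested genes in 5 classes of length, from -0.11 to 0.11; colours mark the calls of the fit on the left in both panels. CENPF, ASPM, MKI67 and KNL1 stay above 0 on the right.

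A trend with length also ran between libraries of the same group. Relative to the mean of its own group, rho with length over the members was -0.66, 0.09 and 0.68 in labelled knockdown replicates 1, 2 and 3, and 0.74, -0.21 and -0.64 in WT replicates 1, 2 and 3. Over all tested genes the values had the same signs and were smaller. They were -0.38, 0.07 and 0.38 in the libraries labelled knockdown and 0.41, -0.12 and -0.36 in WT. The limit given above on comparing members with all genes holds here as well. Set against the WT mean, each labelled knockdown library gave a positive rho over the members, 0.38, 0.62 and 0.74, a mean of 0.58 ± 0.18 (SD, n = 3). The long members follow this order: CENPF, ASPM, MKI67 and KNL1 were lowest in replicate 1 among the libraries labelled knockdown, and highest in replicate 1 among the WT libraries.

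**Figure D5:**
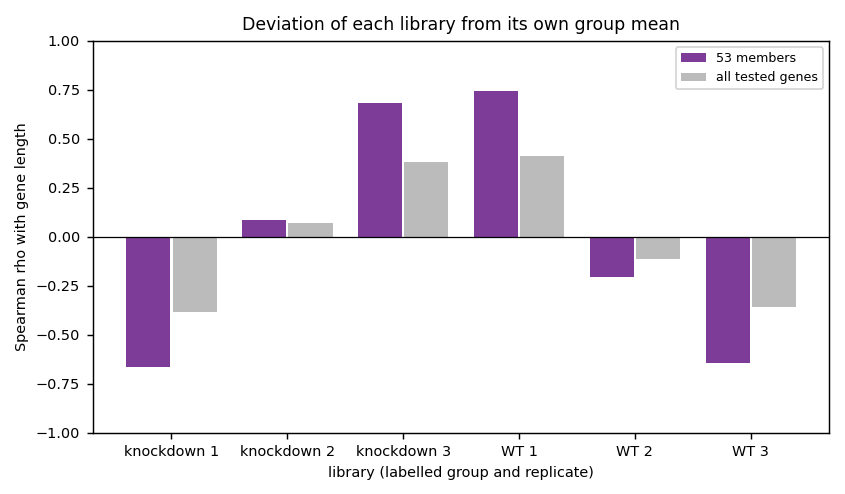
Spearman's rho (vertical axis) between gene length and the deviation of each library from the mean of its own group, for the 53 members and for all tested genes. Spearman's rho is negative in labelled knockdown replicate 1 (-0.66 over the members) and WT replicate 3 (-0.64), and positive in labelled knockdown replicate 3 (0.68) and WT replicate 1 (0.74).

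When each library was given offsets that remove its trend with length over all tested genes, rho over all genes was 0.0285 and that over the members 0.35. In this fit 9 members were higher and 7 lower, where 3668 genes or 25.6% of all those tested were called, against 23.3% without offsets. Of the 15 called members 14 passed again, and SPC25 did not (-0.14, adjusted p = 0.145). CENPF and ASPM had log2 fold changes of 0.40 and 0.41 (adjusted p = 3.08e-06 and 9.58e-06), MKI67 0.26 and KNL1 0.20, and CENPK 0.42. CKS2 (-0.22), BIRC5 (-0.27) and SPC24 (-0.28) also passed. With offsets on length and GC content together, 8 members were higher and 13 lower, and the members' median was -0.043. That fit called more genes throughout, 4584 or 32.0% of those tested, 2343 of them lower. The long members moved further towards 0: CENPF had a log2 fold change of 0.35, ASPM 0.34, MKI67 0.24, KNL1 0.13 (adjusted p = 0.0429) and CENPE 0.0044. PLK4 did not pass there (0.16, adjusted p = 0.0739). TOP2A (-0.14, adjusted p = 0.00390), BUB3 (-0.15), DLGAP5 (-0.13), CDC25B (-0.12), RACGAP1 (-0.11) and SMC4 (-0.11) passed as lower and FOXM1 (0.13, adjusted p = 0.0141) as higher, none of which passed on the deposited counts. With length offsets alone CDC25B (-0.17) and ANLN (0.14) were the added calls.

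GC content was the other sequence measure that went with the change. Spearman's rho between log2 fold change and GC was -0.48 over the members and -0.26 over 13889 tested genes with a GC value; members that rose had a median GC of 39.8% and those that fell 47.4%. Longer members had a lower GC (rho -0.25). INCENP, at 57.8% GC, rose against this trend. The part of length and GC in each gene's change was not tested beyond these fits.

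Promoters of the members were searched for the motifs named above, in the 250 bases before the RefSeq start on GRCh38.p14 (the authors' alignment used hg19). A promoter was given for 44 members; AURKA, BIRC5, BUB3, FOXM1, KNL1, RACGAP1, TPX2, TTK and UBE2C are named only. The CHR core TTTGAA, on either strand, was present in 23 of 44 member promoters (52.3%), against 13.3% of 35116 promoters of the same length. The variant TTCGAA was present in 0 members and 1.19% of all, and other forms of the CHR were not searched. The 35116 promoters were not limited to genes tested here, while all members were tested. CCAAT, on either strand, was present in 31 (70.5%), against 32.0% of all, and 23 members (52.3%) held at least 2 copies, against 9.53%. Members that rose held TTTGAA in 3 of 7 promoters and members that fell in 3 of 5, with 17 of 32 among those not called. CCAAT was in 6 of 7 promoters of members that rose, 5 of 5 of those that fell and 20 of 32 of those not called. Members of both directions were found with and without TTTGAA, and CCAAT was in most promoters of each of these groups. Of the members without a promoter, AURKA and BIRC5 fell and KNL1 rose.

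The promoters of 2 members that fell, CKS2 and CDC20, and of the 3 longest members, CENPF, ASPM and MKI67, which rose, are printed so that both directions can be compared. Each runs 5′ to 3′ in the sense of the gene and ends at the base before the start, and capitals mark TTTGAA and CCAAT or their reverse complements TTCAAA and ATTGG.
CKS2, chr9:89310945-89311194, plus strand: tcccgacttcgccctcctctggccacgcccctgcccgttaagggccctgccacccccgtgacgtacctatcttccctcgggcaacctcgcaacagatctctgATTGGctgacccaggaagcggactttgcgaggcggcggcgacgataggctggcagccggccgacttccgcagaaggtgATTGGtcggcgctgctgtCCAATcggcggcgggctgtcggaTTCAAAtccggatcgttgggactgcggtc
CDC20, chr1:43358731-43358980, plus strand: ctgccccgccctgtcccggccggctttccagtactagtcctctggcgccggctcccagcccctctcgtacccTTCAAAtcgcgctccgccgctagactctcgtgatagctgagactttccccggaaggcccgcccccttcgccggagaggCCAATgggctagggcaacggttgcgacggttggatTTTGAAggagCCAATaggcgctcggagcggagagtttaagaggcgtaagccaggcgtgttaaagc
CENPF, chr1:214602945-214603194, plus strand: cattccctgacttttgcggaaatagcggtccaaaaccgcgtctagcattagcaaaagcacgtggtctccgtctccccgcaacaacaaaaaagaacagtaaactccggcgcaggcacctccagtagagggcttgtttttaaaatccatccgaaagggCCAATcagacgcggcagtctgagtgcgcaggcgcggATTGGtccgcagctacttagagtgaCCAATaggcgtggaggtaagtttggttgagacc
ASPM, chr1:197146670-197146919, minus strand: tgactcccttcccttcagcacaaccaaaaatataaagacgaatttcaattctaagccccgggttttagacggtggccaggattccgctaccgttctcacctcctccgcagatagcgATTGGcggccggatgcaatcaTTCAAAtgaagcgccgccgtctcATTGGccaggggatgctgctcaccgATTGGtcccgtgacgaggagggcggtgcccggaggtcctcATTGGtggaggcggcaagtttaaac
MKI67, chr10:128126424-128126673, minus strand: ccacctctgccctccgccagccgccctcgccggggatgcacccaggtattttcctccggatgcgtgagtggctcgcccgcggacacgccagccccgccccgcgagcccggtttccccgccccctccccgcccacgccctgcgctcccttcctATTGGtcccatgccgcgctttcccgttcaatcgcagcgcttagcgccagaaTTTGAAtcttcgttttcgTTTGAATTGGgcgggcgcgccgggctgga
CKS2 has TTCAAA ending 24 bases before the start, with 3 CCAAT copies upstream of it on either strand. CDC20 has 2 CHR cores and 2 CCAAT copies. CENPF, which rose, has 3 CCAAT copies and neither TTTGAA nor TTCGAA on either strand in this window. ASPM has 4 CCAAT copies, all as ATTGG, and 1 TTCAAA. MKI67 has 2 CHR cores, ending 42 and 24 bases before the start, and the nearer one shares a base with ATTGG.

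Mitotic genes outside the members are read against all tested genes, of which 12.2% rose and 11.0% fell. Of 135 genes in 7 further lists, all tested, 26 rose, 6 fell and 103 did not pass, with a median log2 fold change of 0.044 and rho with length of 0.51. In the list of other centromere and kinetochore proteins 8 of 30 rose and 0 fell (median 0.033). Among those with the largest changes were CENPP (0.55 ± 0.11, SE), which shares 2954 bp of exon with IPPK and 111 bp with NOL8 on the opposite strand, KNTC1 of the checkpoint's RZZ complex (0.31 ± 0.07) and CENPH, a partner of CENPK (0.28 ± 0.07). Of 9 other checkpoint genes 2 rose, the nuclear pore protein TPR (0.61 ± 0.08), which shares 670 bp of exon with PRG4 on the opposite strand, and the MAD2 remodeller TRIP13 (0.23 ± 0.07; 182 bp shared with BRD9).

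Of 17 subunits and partners of the anaphase-promoting complex, the ligase that CDC20 activates, 3 fell and 0 rose (median -0.087). The 3 were CDC26 (-0.40 ± 0.10, SE; a gene of 871 bp sharing 208 bp of exon with PRPF4 on the opposite strand), ANAPC2 (-0.31 ± 0.07) and ANAPC16 (-0.19 ± 0.06; 110 bp shared with ASCC1). Of 16 other condensin and cohesin genes, with a median length of 6107.5 bp, 5 rose and 0 fell (median 0.13). The cohesin loader NIPBL (0.39 ± 0.09), the regulators PDS5A (0.34 ± 0.07) and WAPL (0.21 ± 0.07) and the core subunit SMC3 (0.21 ± 0.06) had the largest changes. No other condensin subunit was called.

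Of 32 other spindle and cytokinesis genes 6 rose and 2 fell (median 0.042). CIT, the citron kinase of cytokinesis, had 152, 152 and 164 CPM in the libraries labelled knockdown and 100, 95.7 and 85.0 CPM in WT, and rose 1.67-fold (0.74 ± 0.07, SE; adjusted p = 1.14e-06; 15 bp of exon shared with MIR1178), more than any member. CKAP2L (0.53 ± 0.06; 64 bp of exon shared with NT5DC4) and the kinesin KIF14, a partner of citron kinase (0.42 ± 0.08), also rose, and the cytokinesis kinesin KIF20A fell (-0.27 ± 0.06; 68 bp of exon shared with CDC23). Of 14 other genes of mitotic entry and exit, MASTL, the kinase that restrains the phosphatase opposing CDK1, rose (0.21 ± 0.07; 443 bp of exon shared with YME1L1) and CDCA3 fell (-0.23 ± 0.08; 329 bp shared with GNB3).

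Of 17 other regulators of mitotic gene transcription 4 rose and 0 fell (median 0.11). They were LIN9, a core subunit of the MuvB complex (0.41 ± 0.09, SE), the pocket protein RBL1 (0.36 ± 0.08), E2F5 (0.29 ± 0.10; 443 bp of exon shared with C8orf59) and E2F7 (0.24 ± 0.08). Of 22 tested G1/S genes set beside them 2 rose and 1 fell (median 0.042). Cyclin D1 (CCND1) had 412.6, 427.0 and 435.5 CPM in the libraries labelled knockdown and 303, 290 and 289 CPM in WT (0.53 ± 0.05, SE; adjusted p = 2.10e-06; 497 bp of exon shared with LTO1), MCM2 rose (0.24 ± 0.06; 45 bp shared with TPRA1) and RRM2 fell (-0.23 ± 0.05). Of 8 genes with CDK inhibitor (CDKN) symbols 5 were tested, and 4 fell. CDKN2D (-0.41 ± 0.11, 1425 bp) and CDKN3 (-0.22 ± 0.08, 1071 bp) lie in the shortest class, where 16.1% of all tested genes fell and 3.32% rose. CDKN1B (p27, -0.19 ± 0.06, 2522 bp) lies in the next class, where 13.0% fell and 5.73% rose. CDKN1A (p21, -0.23 ± 0.06, 3388 bp, 32 bp of exon shared with DINOL) lies in the middle class, where 10.9% fell and 9.29% rose. CDKN2B had 0 counts in every library, and CDKN2A and CDKN2C had at most 1.

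Exons of 11 members overlap those of another gene in the tables; none of the 15 called members is among them. The widest overlaps were on the opposite strand, 1631 bp of NCAPG with LCORL and 1561 bp of SMC4 with TRIM59, and whether the counting used the strand is not given.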

How the data were processed

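The RNA kit kept strand information, per the labels' protocols. Reads were handled with Trim Galore, HISAT2, FastQC and MultiQC on hg19, per the submitters' processing notes. Tool versions, the read counter, its strand setting and its gene annotation: not given in the sources used here. The 6 tables held, per the file headers, the authors' raw counts, FPKM and TPM for 28265 genes. The deposited FPKM equals the count scaled by gene length and by the column's total, with implied lengths whole within 0.001 bp for all 21754 genes with a count, and the deposited TPM is that FPKM rescaled to 1000000.

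Counts were tested in R 4.3.3 with edgeR 4.0.16 (filterByExpr, TMM factors 0.995 to 1.00, glmQLFit and glmQLFTest, group as the only term, Benjamini-Hochberg adjustment over 14315 genes, threshold 0.05). The standard error is the size of the log2 fold change over the square root of F, and 95% intervals use the t distribution. Alternatives were DESeq2 1.42.0, limma-voom (limma 3.58.1), DESeq2 size factors, 2 other filters (any count; 50 counts in each library of a group), each library left out, a replicate block, and offsets per library from natural splines (5 degrees of freedom) on length, or on length and GC content. GC is the mean over GENCODE v29 transcripts of a symbol and was found for all 53 members and 97% of tested genes; the others took the median. Exon overlaps also come from GENCODE v29 (GRCh38). Spearman's rho used scipy 1.17.1.

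The members, lists and tests were chosen with earlier results of these data known. All members may be named; from each further list up to 4 called genes with the largest changes were named, and 1 such gene is not reported here. No pair of replicates looked like 1 library deposited again: chi-square over degrees of freedom was 1.95 to 8.54 where a gene's counts summed to 20 or more. Intervals cover the spread between libraries as fitted. The fit was checked on simulated counts with known changes. At 1.5-fold it found 77 of the 100 altered genes, and at 2-fold it found 95 of 100. False calls numbered 9 in a fit of 14193 genes. All members changed by less than 1.5-fold (ASPM the most, at 1.45-fold). The check therefore does not show how often changes of their size are found.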

Additional observations from a re-analysis of the deposited data

How the results depend on the processing

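With DESeq2 size factors or limma-voom, 8 members were higher and 7 lower, as in the reported fit, and all 53 kept their side of the threshold. DESeq2's own test called 6 and 6, without PLK4, SPC25 and MKI67. The no-filter fit called 11 and 6, adding CENPE, ANLN and SMC2 and losing SPC25, and the stricter filter 8 and 8, adding CDC25B. Of all genes each fit tested, DESeq2 called 18.0%, the no-filter fit 16.8% and the stricter filter 26.0%, against 23.3% in the reported fit. With length offsets the members' median was -0.013 and rho with length 0.35. With length and GC offsets 13 members were lower, in a fit that called 32.0% of all tested genes. The median was -0.043 and rho 0.34. SMC4, not called in the reported fit (log2 fold change 0.0046), was lower there (-0.11, adjusted p = 0.0174), and the cause was not tested. Deviations of same-numbered libraries from their group means had correlations of -0.19, 0.008 and -0.22. The highest were 0.22, for labelled knockdown replicate 1 with WT replicate 3, and 0.19, for labelled knockdown replicate 3 with WT replicate 1. These deviations carry the trend with length described above, so whether the replicate numbers pair the libraries cannot be told from them. A fit with the replicate block called 1891 genes (13.2% of those tested), against 3330 (23.3%), and 4 members higher and 2 lower. The block with length and GC offsets gave a median of -0.043 and rho of 0.34, with CDC25B, BUB3, TOP2A and FOXM1 called and PLK4, MAD2L1, CDC20 and KNL1 not. That fit called 27.4% of all tested genes. Leaving out each library gave between 1826 and 4941 called genes, between 3 and 11 members higher, between 2 and 8 lower, a median between -0.029 and -0.011 and rho between 0.50 and 0.71. The members' rho was 0.585 with the longest GENCODE transcript as length and 0.60 without the 2 longest members. TRIM25 stayed higher in every setting run. The member with the fewest counts, CENPI (170 in 1 library), had a 95% interval from -0.28 to 0.19 on the log2 scale, against -0.14 to 0.079 for TPX2, which had at least 3653.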
